A study of Rattus norvegicus with 24 samples.

Results

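Gsta2, Gss, Gclm, Gpx4 and Akr7a3 are genes of glutathione synthesis, glutathione use and aldehyde removal, and they were followed in the kidney of salt-sensitive rats and of a more salt-resistant strain. They were chosen by gene symbol, with earlier results of these data known. Each had 1 measured probe, so the 5 genes are 5 of the 1766 probes with a value on at least 1 array. Each of 24 cDNA arrays carried total RNA of an LS and an HS rat of the same strain, labelled with Cy5 and Cy3. LS and HS are the names in the array titles and are read here as low and high salt. The groups were SS at 3 days, SS overnight, SS-13BN/Mcw at 3 days and SS-13BN/Mcw overnight after the change of salt, with 3 rat pairs each. Every pair was hybridised in both dye orientations, and its 2 arrays count as 1 replicate. SS is the Dahl salt-sensitive rat, and SS-13BN/Mcw has its chromosome 13 from the Brown Norway (BN) rat, so that all groups share the SS genome outside chromosome 13. None of the 5 genes lies on chromosome 13 in the rat gene table (0 of 5). Neither sex, age, diet composition nor region of the kidney is in the labels.

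All values are log ratios in the deposited units after each array was centred on its median. Neither the log base nor the numerator is stated in the sources, so no fold is printed and no direction with salt is drawn. Values are given as positive or negative ratios, and the same direction was assumed for all groups and for both dye orientations of a pair. Rats numbered 1 to 3 of a strain appear in the titles of both times. By name the 3-day and overnight comparisons of a strain therefore share these rats, and values of both times are set side by side rather than counted as separate support. The SS slides of each time were numbered apart from the SS-13BN/Mcw slides, so slide order and strain cannot be told apart. Within SS the overnight slides were numbered apart from the 3-day slides, so slide order and time cannot be told apart there. An array held values for 877 to 1412 probes, probe intensities were not analysed here, and 3 pairs per group limit the precision.

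Glutathione is a tripeptide made in the cytosol in 2 ATP-dependent steps. Glutamate-cysteine ligase, whose modifier subunit is Gclm, joins glutamate to cysteine, and glutathione synthetase, Gss, adds glycine. Glutathione transferases such as Gsta2 couple it to electrophiles, and the selenoenzyme Gpx4 spends it on reducing lipid hydroperoxides in membranes. Akr7a3 is an aldehyde reductase, first known in the rat for acting on aflatoxin dialdehyde. It uses NADPH and not glutathione, and stands with the others as a detoxifying enzyme. In the kidney the proximal tubule is known for high glutathione turnover and for alpha-class transferases.

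All 5 genes lay on the negative side on average in each of the groups in which they could be summarised, and they fell into 2 tiers. Gsta2 and Akr7a3 were negative on 24 of 24 arrays each. Gss was negative on 19 of 24, Gpx4 on 18 of 24 and Gclm on 17 of the 19 arrays that held a value for it. The group means were farther from 0 in SS-13BN/Mcw than in SS at the same time. In SS 0 of 5 genes passed the threshold at either time, an adjusted p under 0.05 over all probes tested by limma. In SS-13BN/Mcw 2 of the 4 genes tested passed at 3 days and 5 of 5 passed overnight.

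**Figure D1:**
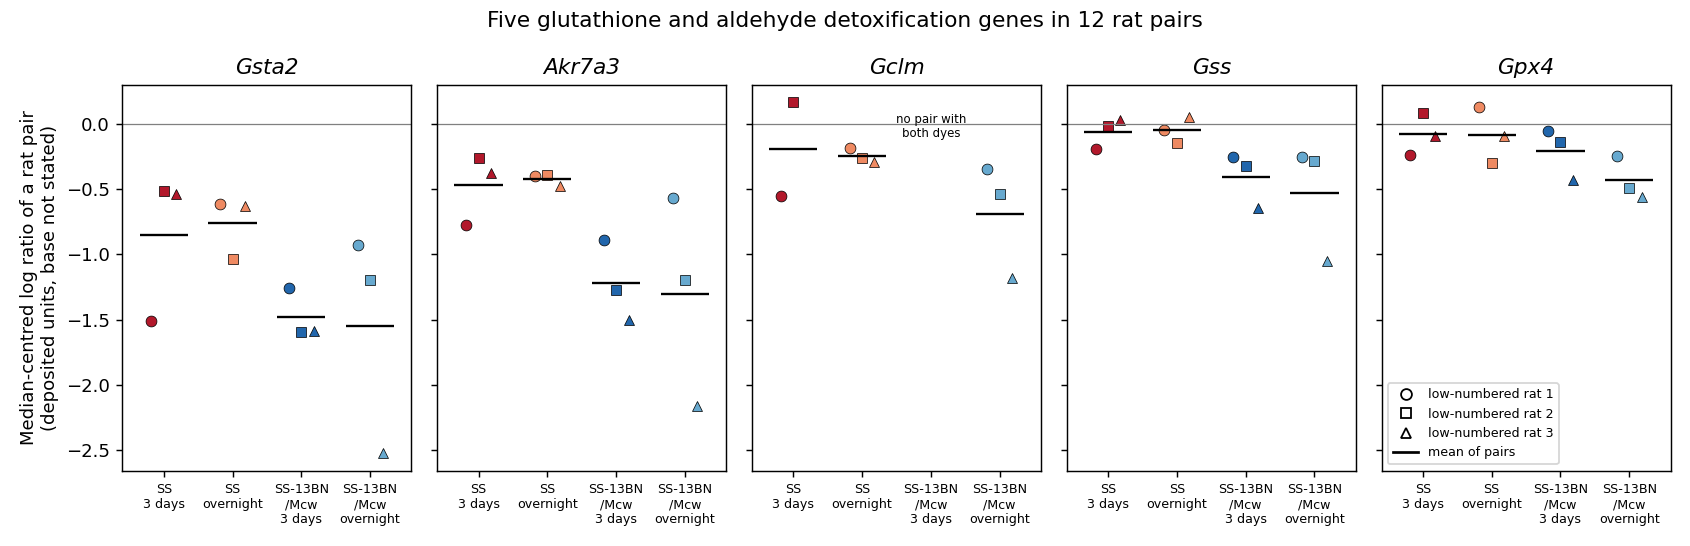
Median-centred log ratio (y axis, deposited units) of each rat pair for Gsta2, Akr7a3, Gclm, Gss and Gpx4 in the 4 groups, with 1 symbol for each low-numbered rat and a line at the mean of the pairs. Gsta2 and Akr7a3 lie below 0 in all 12 pairs, while Gss and Gpx4 scatter around 0 in SS, and Gclm has no pair with both dye orientations in SS-13BN/Mcw at 3 days.

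Gsta2, an alpha-class glutathione transferase, was the gene farthest from 0. Its pair values were -1.51, -0.51 and -0.54 in SS at 3 days and -0.61, -1.04 and -0.63 in SS overnight. In SS-13BN/Mcw they were -1.25, -1.59 and -1.58 at 3 days and -0.93, -1.20 and -2.52 overnight. No pair of any group came near 0. In SS at 3 days pair 1 lay apart from the other pairs, and in SS-13BN/Mcw overnight pair 3 did.

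The means of Gsta2 in SS were -0.85 ± 0.57 at 3 days (adjusted p = 0.176) and -0.76 ± 0.24 overnight (adjusted p = 0.163, SD, n = 3 each), and neither passed. In SS-13BN/Mcw the mean was -1.48 ± 0.19 at 3 days (SD, n = 3, adjusted p = 0.0146) and -1.55 ± 0.85 overnight (SD, n = 3, adjusted p = 0.00627), and both passed. Ranked by mean from the negative end, Gsta2 was number 2 of 883 probes in SS at 3 days and number 5 of 1139 in SS overnight. In SS-13BN/Mcw it was number 3 of 907 at 3 days and number 5 of 1100 overnight. With arrays scaled to one spread Gsta2 did pass in SS, at -0.77 at 3 days (adjusted p = 0.0363) and -0.79 overnight (adjusted p = 0.00887), and it passed under quantile normalization too.

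Akr7a3, the aldehyde reductase, followed Gsta2 at smaller values. Its pairs stood at -0.77, -0.26 and -0.38 in SS at 3 days and at -0.40, -0.39 and -0.47 in SS overnight. In SS-13BN/Mcw they stood at -0.89, -1.27 and -1.50 at 3 days and at -0.56, -1.19 and -2.16 overnight. At each time the 3 SS pairs lay above the 3 SS-13BN/Mcw pairs without overlap.

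Its mean in SS was -0.47 ± 0.27 at 3 days (adjusted p = 0.402) and -0.42 ± 0.046 overnight (adjusted p = 0.367, SD, n = 3 each). For SS-13BN/Mcw the mean was -1.22 ± 0.31 at 3 days (SD, n = 3, adjusted p = 0.0146) and -1.31 ± 0.80 overnight (SD, n = 3, adjusted p = 0.00627), and both passed. With quantile normalization Akr7a3 passed in SS, at -0.46 at 3 days (adjusted p = 0.0495) and -0.44 overnight (adjusted p = 0.0293). Gsta2 was lower than Akr7a3 in 12 of 12 pairs, by 0.0054 to 0.73. Ratios of different probes need not shrink alike, so the order of 2 probes within a pair is a description of these probes. A cDNA probe can also bind RNA of near-identical family members, and the Gsta2 value may include related alpha-class transferases.

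The promoters of Gsta2, Akr7a3 and Gclm are shown because each holds a match to a motif searched for in genes that lay on the same side together. They are RefSeq sequences of the GRCr8 build, from 250 bases before to 50 after the gene start, printed 5′ to 3′ on the gene's strand. Capitals mark matches to either of the motifs searched on both strands. These were the antioxidant response element core TGACNNNGC, the binding sequence of Nrf2 family dimers, and GTTAAT, a hepatocyte nuclear factor 1 half-site. The Gsta2 window is chr8:88077043-88077342 on the minus strand, the Akr7a3 window chr5:156876471-156876770 on the plus strand, and the Gclm window chr2:213031885-213032184 on the plus strand.
Gsta2: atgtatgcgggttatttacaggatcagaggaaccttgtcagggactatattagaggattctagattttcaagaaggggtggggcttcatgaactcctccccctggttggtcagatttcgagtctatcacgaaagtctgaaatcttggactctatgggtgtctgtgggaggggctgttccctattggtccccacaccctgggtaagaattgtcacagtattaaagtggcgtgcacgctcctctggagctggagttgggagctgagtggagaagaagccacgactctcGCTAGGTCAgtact
Akr7a3: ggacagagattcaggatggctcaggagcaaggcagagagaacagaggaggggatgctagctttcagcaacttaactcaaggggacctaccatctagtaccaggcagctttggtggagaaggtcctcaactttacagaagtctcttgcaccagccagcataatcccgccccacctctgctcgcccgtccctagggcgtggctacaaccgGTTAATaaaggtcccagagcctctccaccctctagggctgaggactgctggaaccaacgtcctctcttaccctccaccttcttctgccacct
Gclm: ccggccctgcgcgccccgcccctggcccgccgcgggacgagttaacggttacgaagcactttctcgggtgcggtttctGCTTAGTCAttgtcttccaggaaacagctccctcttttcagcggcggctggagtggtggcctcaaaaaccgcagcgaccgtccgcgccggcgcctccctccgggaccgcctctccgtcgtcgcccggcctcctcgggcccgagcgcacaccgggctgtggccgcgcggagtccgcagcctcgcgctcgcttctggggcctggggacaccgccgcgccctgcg

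The TGACNNNGC core was found on the reverse strand in 2 of these windows, at bases 79 to 87 of the Gclm window, before the gene start, and at bases 287 to 295 of the Gsta2 window, after it. It occurs in 12.1 percent of the 33469 RefSeq promoter windows of the same length. GTTAAT was found at bases 209 to 214 of the Akr7a3 window on the forward strand, and 7.5 percent of all windows hold it. Neither was found in the Gss window or in any of the 3 windows listed for Gpx4, which says only that these letters are not there. A match is a description and not a site. The windows also differ in base composition, with 50 percent G and C for Gsta2, 55.7 percent for Akr7a3 and 72 percent for Gclm.

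Of the synthesis genes, Gclm had the fewest values. Its pairs stood at -0.55 and 0.17 in SS at 3 days, where the third pair had no value, and at -0.18, -0.26 and -0.29 in SS overnight. In SS-13BN/Mcw overnight they stood at -0.34, -0.54 and -1.18. At 3 days SS-13BN/Mcw had Gclm values on 3 arrays, all with Cy5 on the high-numbered rat, at -0.22, -0.76 and -0.41. The 3 SS pairs overnight lay above the 3 SS-13BN/Mcw pairs.

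The mean of Gclm in SS was -0.19 ± 0.51 at 3 days (SD, n = 2, adjusted p = 0.752) and -0.24 ± 0.056 overnight (SD, n = 3, adjusted p = 0.49). In SS-13BN/Mcw overnight it was -0.69 ± 0.44 (SD, n = 3, adjusted p = 0.0317), which passed. With 1 orientation allowed to stand for a pair, the fitted value in SS-13BN/Mcw at 3 days was -0.46 (adjusted p = 0.283). That value holds an unbalanced dye effect.

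Gss, which makes glutathione in the last step, was near 0 in SS and negative in every SS-13BN/Mcw pair. Its pairs were -0.19, -0.016 and 0.033 in SS at 3 days and -0.046, -0.15 and 0.056 in SS overnight. In SS-13BN/Mcw they were -0.26, -0.32 and -0.64 at 3 days and -0.25, -0.29 and -1.05 overnight. The pairs of the 2 strains did not overlap at either time.

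The mean of Gss was -0.058 ± 0.12 in SS at 3 days (adjusted p = 0.916) and -0.046 ± 0.10 in SS overnight (adjusted p = 0.889, SD, n = 3 each). Among SS-13BN/Mcw pairs it was -0.41 ± 0.21 at 3 days (SD, n = 3, adjusted p = 0.14) and -0.53 ± 0.45 overnight (SD, n = 3, adjusted p = 0.0262), of which the overnight value passed. The overnight value was -0.27 without pair 3 (adjusted p = 0.168), and it did not pass where 1 orientation could stand for a pair (adjusted p = 0.0502). With arrays scaled to one spread the 3-day value in SS-13BN/Mcw passed as well, at -0.44 (adjusted p = 0.0189).

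Gpx4, the lipid hydroperoxidase, had small values, nearer 0 than those of Gss by group mean in SS-13BN/Mcw but not in SS. Its pairs were -0.24, 0.088 and -0.089 in SS at 3 days and 0.13, -0.30 and -0.088 in SS overnight. In SS-13BN/Mcw they were -0.054, -0.14 and -0.43 at 3 days and -0.25, -0.49 and -0.56 overnight. The strains overlapped at both times.

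The mean of Gpx4 was -0.080 ± 0.16 in SS at 3 days (adjusted p = 0.81) and -0.086 ± 0.22 in SS overnight (adjusted p = 0.719, SD, n = 3 each). In SS-13BN/Mcw it was -0.21 ± 0.20 at 3 days (SD, n = 3, adjusted p = 0.322) and -0.43 ± 0.16 overnight (SD, n = 3, adjusted p = 0.0207), of which the overnight value passed.

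**Figure D2:**
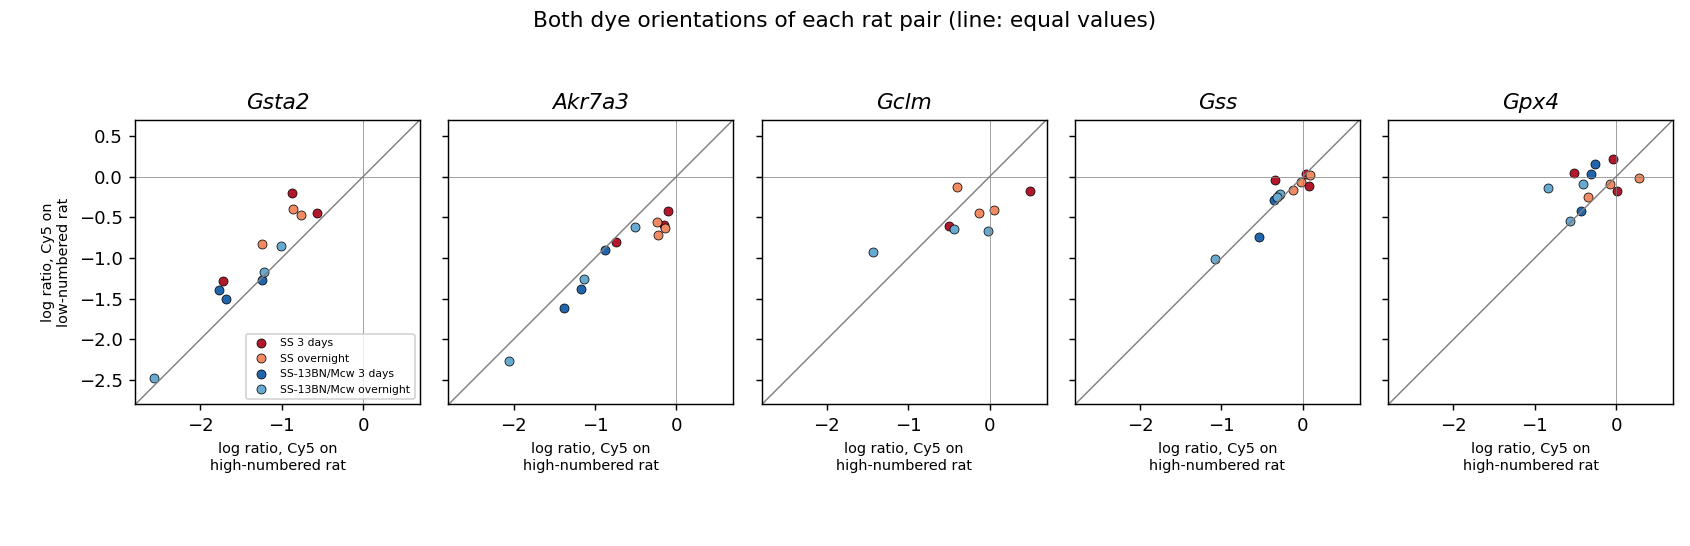
Median-centred log ratio of the array with Cy5 on the high-numbered rat (x axis) against that of the array with Cy5 on the low-numbered rat (y axis), 1 point per rat pair, coloured by group, with a line at equal values. Both orientations of Gsta2 and Akr7a3 are negative in all 12 pairs, and the offsets from the line run opposite ways for these genes.

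Both dye orientations of a pair gave negative values for Gsta2 and Akr7a3 in all 12 pairs. For Gsta2 the array with Cy5 on the high-numbered rat was the lower one in 11 of 12 pairs, by 0.27 on average (difference -0.27 ± 0.21, SD, n = 12). For Akr7a3 that array was the higher one in 12 of 12 pairs (difference 0.25 ± 0.16, SD, n = 12). The mean difference was -0.0082 for Gss (n = 12), -0.18 for Gpx4 (n = 12) and 0.20 for Gclm (n = 8). The ratios were assumed to keep their LS and HS direction in both dye orientations. Under that assumption a dye offset of this kind enters both arrays of a pair with opposite sign and cancels in the pair mean. If the ratios are Cy5 over Cy3 instead, a dye offset stays in the pair mean. The sources do not state which of these holds. For Gpx4 and Gclm the mean orientation difference was of the size of some group means, such as -0.21 for Gpx4 in SS-13BN/Mcw at 3 days and -0.24 for Gclm in SS overnight. Single arrays of both genes differed in sign in some groups. In SS-13BN/Mcw overnight the means were farther from 0, at -0.43 for Gpx4 and -0.69 for Gclm, with 6 of 6 arrays negative for each.

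The number of genes called has to be read against all probes. Members and gene lists were chosen with earlier results of these data known. Here and below, a count above the share of all probes is therefore a description and not independent support. In SS 0.34 percent of 883 probes passed at 3 days and 1.14 percent of 1139 overnight, beside 0 of 5 members each time. Negative calls in SS were 0 percent at 3 days and 0.176 percent overnight. With the low-numbered rat as a replicate block, 5 probes in place of 3 passed in SS at 3 days. In SS at 3 days and overnight 1 of 5 members, Gsta2, had an unadjusted p under 0.05, where 12.2 percent of all probes at 3 days and 15.3 percent overnight did. In SS-13BN/Mcw overnight 10.5 percent of 1100 probes passed in either direction and 7.36 percent were negative calls, beside 5 of 5 members. At 3 days 2.98 percent of 907 probes passed in that strain, 2.32 percent as negative calls, beside 2 of 4 members.

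These calls depended on single pairs and on the groups in the fit. In SS-13BN/Mcw overnight 2 of 5 genes, Gsta2 and Akr7a3, passed without pair 3, 3 of 5 without pair 2 and 5 of 5 without pair 1. With that group fitted alone 0 of 5 passed in limma, though 5 of 5 had an unadjusted p under 0.05 (adjusted p 0.0611 to 0.14), as had 280 of 1100 probes in that fit and 30.5 percent of them in the fit over all groups. In SS-13BN/Mcw at 3 days 0 passed without pair 2 or without pair 3, and 2 without pair 1.

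The common response averages the 4 groups with equal weight, and it can stand away from 0 without a like value in every group. Gss had means of -0.058 and -0.046 in SS but -0.41 and -0.53 in SS-13BN/Mcw (3 days and overnight). Gpx4 had -0.080 and -0.086 in SS but -0.21 and -0.43 in SS-13BN/Mcw. In the 4-group average 4 of 4 genes tested passed on the negative side, where 28.5 percent of 822 probes passed and 15.1 percent were negative calls. Gsta2 stood at -1.16 ± 0.128 (SE, n = 12, adjusted p = 0.00013) and Akr7a3 at -0.85 ± 0.109 (SE, n = 12, adjusted p = 0.00029). Gss stood at -0.26 ± 0.0664 (SE, n = 12, adjusted p = 0.0128) and Gpx4 at -0.20 ± 0.0507 (SE, n = 12, adjusted p = 0.0123). These values treat the 12 pairs as independent, although the low-numbered rats of a strain recur by name at both times. With that rat as a replicate block the adjusted p was 0.00049 for Gsta2, 0.0007 for Akr7a3, 0.0223 for Gss and 0.0315 for Gpx4, and 176 in place of 234 probes passed. Each of these 4 passed without any one of the 12 pairs. Gclm was not tested for want of pairs, and with 1 orientation sufficing it stood at -0.40 (adjusted p = 0.0108).

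The strain comparison asks whether the ratio differed between SS and SS-13BN/Mcw rats at the same time. SS was the higher strain for each gene tested, and no gene passed. Overnight the difference SS minus SS-13BN/Mcw was 0.89 for Akr7a3 (95% interval 0.22 to 1.56), 0.79 for Gsta2 (0.0056 to 1.58) and 0.48 for Gss (0.074 to 0.89). For Gclm it was 0.44 (-0.080 to 0.97) and for Gpx4 0.34 (0.030 to 0.66). The adjusted p was 0.898 for each of the 5 genes in limma.

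Of 1053 probes 0 passed in this comparison (0 percent), and 5.03 percent had an unadjusted p under 0.05, 3.7 percent with SS higher. Of the 5 genes 4 did, with SS higher, all but Gclm. All 3 SS pairs lay above all 3 SS-13BN/Mcw pairs for 3 of 5 genes, Akr7a3, Gclm and Gss, where this held for 6.9 percent of 898 probes with all pairs. The difference for Gsta2 was 0.30 without pair 3 of SS-13BN/Mcw overnight, that for Akr7a3 0.46, that for Gss 0.22 and that for Gclm 0.20. Without that pair 0 of 5 genes had an unadjusted p under 0.05 in this comparison, in place of 4.

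At 3 days the differences were 0.75 for Akr7a3 (95% interval 0.079 to 1.42, adjusted p = 0.528), 0.63 for Gsta2 (-0.16 to 1.42, adjusted p = 0.591) and 0.35 for Gss (-0.060 to 0.76, adjusted p = 0.59). For Gpx4 it was 0.13 (-0.18 to 0.44, adjusted p = 0.787). Of 824 probes 0 passed (0 percent), and 8.37 percent had an unadjusted p under 0.05, 4.37 percent with SS higher, which among the 4 genes tested held for Akr7a3. All SS pairs lay above all SS-13BN/Mcw pairs for 2 of 4 genes, Akr7a3 and Gss, and for 7.39 percent of 704 probes. The strain differences of Gsta2 thus include 0 at 3 days within their error, and an interval that includes 0 does not show that the strains were alike.

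**Figure D3:**
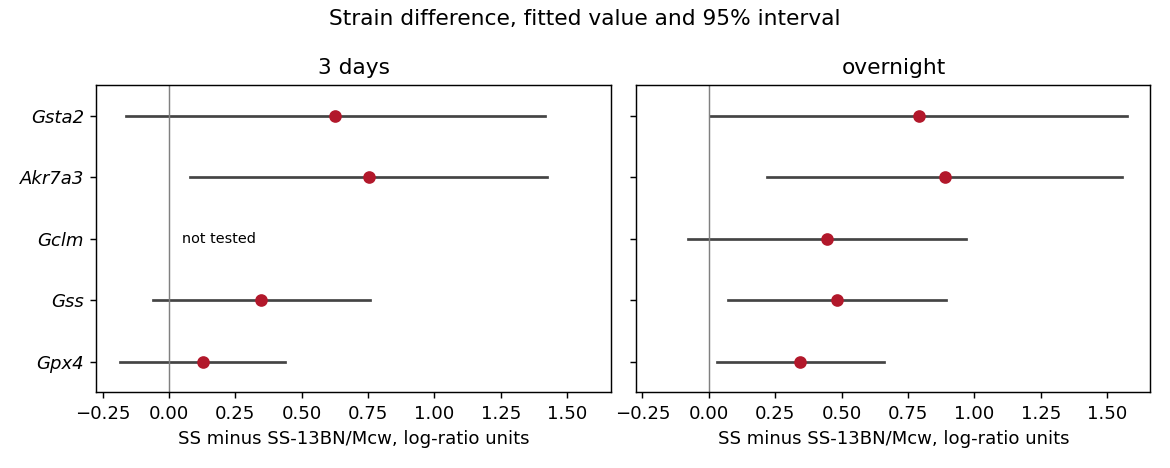
Fitted difference SS minus SS-13BN/Mcw in log-ratio units (x axis) with its 95% interval for each gene (y axis), at 3 days (left) and overnight (right). Every fitted difference is above 0, the largest being 0.89 for Akr7a3 overnight, and none passed after adjustment over all probes.

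Between the times no member passed either, and 0 of 880 probes in SS and 0 of 897 in SS-13BN/Mcw did (0 percent each, with 1.93 and 11.3 percent at an unadjusted p under 0.05). In SS the difference 3 days minus overnight ran from -0.091 for Gsta2 to 0.051 for Gclm (adjusted p = 0.988 each). In SS-13BN/Mcw it was 0.22 for Gpx4 (95% interval -0.090 to 0.54, adjusted p = 0.544), 0.12 for Gss, 0.085 for Akr7a3 and 0.074 for Gsta2. The intervals treat the pairs of both times as independent, although the low-numbered rats of a strain recur by name. Those for Gsta2 were wide, -0.88 to 0.70 in SS and -0.72 to 0.87 in SS-13BN/Mcw. Both signs of a time difference of that size stay within the error.

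The pair values of the members are set beside those of proximal tubule markers, and how closely they vary together was not tested. The marker list held 27 genes, 15 of them measured, and 9 probes had a value in all pairs. The median of these 9 was -0.76, -0.19 and -0.14 in SS at 3 days and -0.21, -0.29 and -0.25 in SS overnight. In SS-13BN/Mcw it was -0.76, -0.89 and -1.16 at 3 days and -0.47, -0.81 and -1.39 overnight. The pair farthest from 0 in SS at 3 days, pair 1, was also the lowest for all 5 genes, with only 2 pairs measured for Gclm. In SS-13BN/Mcw overnight the pair farthest from 0, pair 3, was also the lowest for all 5 genes. In the other groups this did not hold for every gene. In SS overnight the median was lowest in pair 2, as were Gsta2, Gss and Gpx4, but Akr7a3 and Gclm were lowest in pair 3. In SS-13BN/Mcw at 3 days the median, Akr7a3, Gss and Gpx4 were lowest in pair 3, but Gsta2 in pair 2 by a narrow margin (-1.592 against -1.585).

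Of the whole proximal tubule list 0 of 13 genes tested were negative calls in SS at 3 days and 0 of 14 in SS overnight. In SS-13BN/Mcw 8 of 14 were at 3 days and 11 of 15 overnight. Over all probes negative calls were 0, 0.176, 2.32 and 7.36 percent in these groups, in the same order. In SS 12 of 13 list genes at 3 days and 12 of 14 overnight were negative without being called. For SS minus SS-13BN/Mcw 0 of 13 passed at 3 days and 0 of 14 overnight. Anpep, a brush border aminopeptidase, Kap, an androgen-regulated protein, and Aadat, an aminotransferase, were lowest of the 13 list genes tested in the common response, at -1.24, -1.20 and -1.18. Aqp1, the water channel of the proximal tubule and thin limb, went the other way at 0.11 (adjusted p = 0.0217). Whether the members' values follow from the number of proximal tubule cells in a sample was not tested. In RNA of kidney tissue, whose region is not in the labels, fewer cells of a type and less RNA per cell cannot be told apart.

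Gsta2 lay below the proximal tubule median in 3 of 3 pairs of every group. It did so by 0.49 ± 0.23 in SS at 3 days, 0.51 ± 0.21 in SS overnight, 0.54 ± 0.14 in SS-13BN/Mcw at 3 days and 0.66 ± 0.41 in SS-13BN/Mcw overnight (SD, n = 3 each). Akr7a3 also lay below the median in every pair, by 0.11 ± 0.12 in SS at 3 days, 0.17 ± 0.063 in SS overnight, 0.29 ± 0.14 in SS-13BN/Mcw at 3 days and 0.42 ± 0.34 in SS-13BN/Mcw overnight (SD, n = 3 each). Gss lay above the median in every pair, by 0.30 ± 0.23 in SS at 3 days, 0.20 ± 0.089 in SS overnight, 0.53 ± 0.035 in SS-13BN/Mcw at 3 days and 0.36 ± 0.15 in SS-13BN/Mcw overnight. Gpx4 lay above it in all pairs but 1, in SS overnight, by 0.28 ± 0.23 in SS at 3 days, 0.16 ± 0.18 in SS overnight, 0.73 ± 0.022 in SS-13BN/Mcw at 3 days and 0.46 ± 0.33 in SS-13BN/Mcw overnight (SD, n = 3 each). Strain differences in these distances were not tested.

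**Figure D4:**
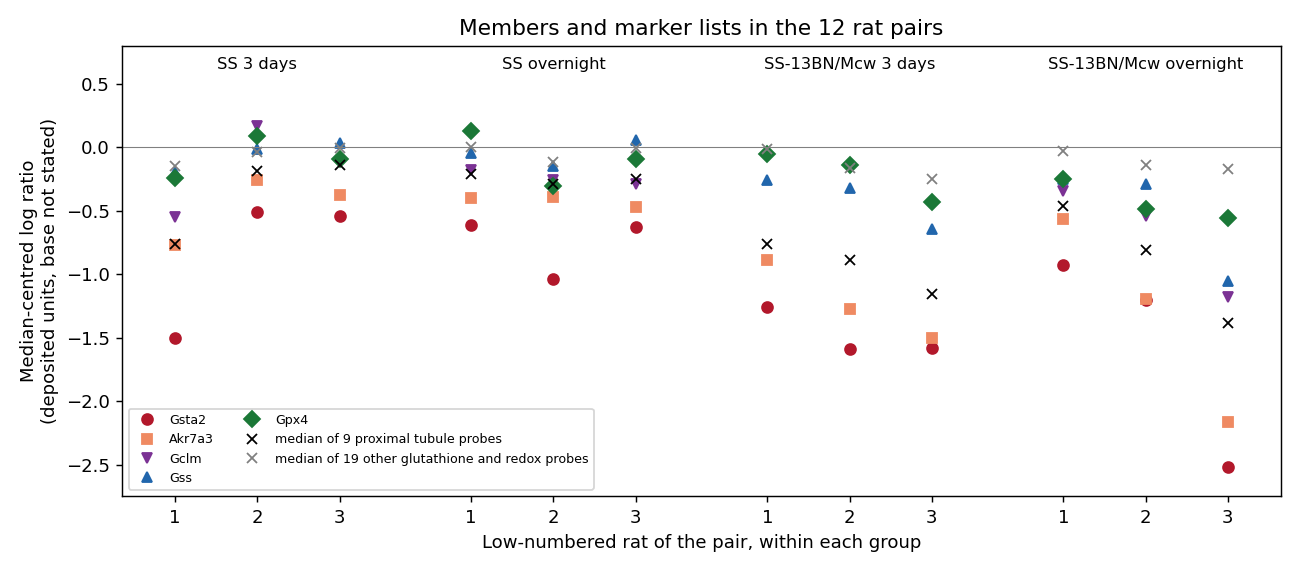
Median-centred log ratio (y axis) of the 5 genes in each of the 12 rat pairs (x axis, by group and low-numbered rat), with the median of 9 proximal tubule probes (black crosses) and of 19 other glutathione and redox probes (grey crosses). Gsta2 and Akr7a3 lie below the proximal tubule median in every pair, Gss lies above it, and the grey crosses stay between -0.25 and 0.0068.

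The other marker lists held fewer measured genes. Matrix and fibroblast genes, 9 of 10 measured, had a median of 0.46 in SS at 3 days, 0.47 in SS overnight, 0.052 in SS-13BN/Mcw at 3 days and 0.45 in SS-13BN/Mcw overnight. Thick ascending limb and distal tubule genes, 6 of 10 measured, had a median of -0.25 in SS at 3 days, -0.11 in SS overnight, 0.015 in SS-13BN/Mcw at 3 days and -0.19 in SS-13BN/Mcw overnight. Collecting duct genes, 3 of 10 measured, had a median of -0.14 in SS at 3 days, -0.12 in SS overnight, 0.27 in SS-13BN/Mcw at 3 days and -0.084 in SS-13BN/Mcw overnight. Of the immune list 3 of 10 genes were measured, with a median of 0.20 in SS at 3 days and 0.25 in SS overnight over 2 tested, and in SS-13BN/Mcw the 1 tested stood at 0.026 at 3 days and 0.18 overnight. The 1 endothelial gene measured of 8, Kdr, stood at -0.044 in SS at 3 days, -0.019 in SS overnight, 0.20 in SS-13BN/Mcw at 3 days and 0.14 in SS-13BN/Mcw overnight. The part of these cells in the members' values was not tested.

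The probes whose pair values were most like those of Gsta2 were sought among 597 named probes with a value in all 12 pairs, by the mean absolute difference over the pairs. They were Hao2, a peroxisomal hydroxyacid oxidase, at 0.0963, Aadat at 0.151 and Acsm2, which activates medium-chain fatty acids, at 0.23, where the median probe differed by 1.17. For Akr7a3 they were the peptide transporter Slc15a2 at 0.251, Gsta2 at 0.306 and Amacr, a racemase of branched-chain fatty acid and bile acid metabolism, at 0.309, against 0.868 for the median probe. In the common response the median over all probes tested was 0.0078, against -1.16 for Gsta2 and -0.85 for Akr7a3. The median difference is therefore near each gene's own distance from 0. Hao2, Aadat, Acsm2 and Slc15a2 belong to the proximal tubule list. Hao2 averaged -0.73 ± 0.50 in SS at 3 days, -0.79 ± 0.29 in SS overnight, -1.35 ± 0.18 in SS-13BN/Mcw at 3 days and -1.58 ± 0.89 in SS-13BN/Mcw overnight (SD, n = 3 each).

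For Gss the most alike probes were Ahcy, which hydrolyses S-adenosylhomocysteine, at 0.0926, Hsd17b4, a peroxisomal enzyme of fatty acid oxidation, at 0.0982 and the acyl-CoA dehydrogenase Acads at 0.103 (median probe 0.321). For Gpx4 they were the mitochondrial aldehyde dehydrogenase Aldh2 at 0.0828, the acyl-CoA dehydrogenase Acadl at 0.0863 and the carboxypeptidase Cpd at 0.111 (median probe 0.271). Ahcy had the strain order of Gss, with -0.083 ± 0.10 in SS at 3 days, 0.038 ± 0.12 in SS overnight, -0.55 ± 0.12 in SS-13BN/Mcw at 3 days and -0.50 ± 0.52 in SS-13BN/Mcw overnight (SD, n = 3 each). A small difference from a gene near 0 is shared by many probes that move little.

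A list of 73 other genes of glutathione and redox metabolism had 28 measured genes. In limma 0 of them passed in SS at either time or in SS-13BN/Mcw at 3 days, and values are means with SD over 3 pairs.

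In SS at 3 days 14 of 20 were negative with a median of -0.058. Of smallest p there, the epoxide hydrolase Ephx1 stood at -0.32 ± 0.075 (adjusted p = 0.13), the NADPH-forming dehydrogenase Idh1 at -0.22 ± 0.051 (adjusted p = 0.251), Aldh1a1 at -0.17 ± 0.16 (adjusted p = 0.498) and the mu-class transferase Gstm2 at -0.39 ± 0.44 (adjusted p = 0.522). In SS overnight 17 of 26 were negative with a median of -0.077. The genes of smallest p in SS overnight were Ephx1 at -0.34 ± 0.20 (adjusted p = 0.0658), Gstm7 at -0.27 ± 0.083 (adjusted p = 0.168), Oplah, which opens the 5-oxoproline ring in the return of glutamate to glutathione synthesis, at -0.57 ± 0.20 (adjusted p = 0.245), and Ggt1 at -0.59 ± 0.24 (adjusted p = 0.28).

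In SS-13BN/Mcw at 3 days 16 of 21 tested were negative with a median of -0.16, and the smallest p values belonged to Ggt1 at -0.79 ± 0.57 (adjusted p = 0.14), and to the superoxide dismutase Sod1 at -0.41 ± 0.24, Aldh2 at -0.26 ± 0.27 and the aldehyde reductase Akr1a1 at -0.24 ± 0.28 (each adjusted p = 0.192). In SS-13BN/Mcw overnight 20 of 24 tested were negative with a median of -0.17, against a median of -0.0016 over all probes tested. Of the 24 genes 2 passed, both negative, which is near the 7.36 percent of negative calls over all probes and is no result about the list. They were Ggt1, the brush border enzyme that starts the breakdown of glutathione outside the cell, at -1.35 ± 0.71 (SD, n = 3, adjusted p = 0.0107), and Aldh2 at -0.33 ± 0.12 (SD, n = 3, adjusted p = 0.0473). Me1, a source of NADPH, at -0.28 ± 0.23 (adjusted p = 0.0685) and the peroxiredoxin Prdx6 at -0.56 ± 0.068 (adjusted p = 0.0726) did not pass (SD, n = 3 each).

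Ephx1, singled out after its values were seen, had the lower mean in SS, at -0.32 ± 0.075 in SS against -0.16 ± 0.055 in SS-13BN/Mcw at 3 days (SD, n = 3 each), but the difference of -0.17 did not pass (adjusted p = 0.631). No difference between strains or times passed for a gene of the list. The smallest p values were those of Aldh1a1 (SS minus SS-13BN/Mcw -0.33 ± 0.13, SE, adjusted p = 0.528) and Nqo1, a quinone reductase (-0.20 ± 0.10, SE, adjusted p = 0.59), at 3 days. Overnight they were those of Ggt1 (0.76 ± 0.35, SE) and Me1 (0.24 ± 0.12, SE, adjusted p = 0.898 each).

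Between the times the list's smallest p values were those of Mgst1 (-0.15 ± 0.13, SE) and Sod2 (-0.18 ± 0.16, SE, adjusted p = 0.988 each) in SS. In SS-13BN/Mcw they were those of Me1 (0.30 ± 0.12, SE, adjusted p = 0.424) and Cbs, which makes cystathionine on the way to cysteine (0.31 ± 0.16, SE, adjusted p = 0.456).

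In the common response 9 of 19 list genes tested passed, 0 positive and 9 negative, and their median was -0.082, against 0.0078 over all probes tested. Over all probes 28.5 percent passed and 15.1 percent were negative calls. By role these were 3 of 3 synthesis and supply genes tested, 2 of 3 transferases, 2 of 7 genes of peroxide removal and 2 of 6 of aldehyde and quinone removal. Oplah stood at -0.54 ± 0.115 (SE, adjusted p = 0.00542), Idh1 at -0.14 ± 0.0381 (SE, adjusted p = 0.0151) and Cbs at -0.19 ± 0.0562 (SE, adjusted p = 0.0229). The transferases Gstm2 at -0.48 ± 0.115 (SE, adjusted p = 0.0104) and Gstm1 at -0.23 ± 0.0678 (SE, adjusted p = 0.0241) passed. So did Prdx6 at -0.34 ± 0.0919 (SE, adjusted p = 0.0162), Sod1 at -0.23 ± 0.0745 (SE, adjusted p = 0.0357), Ephx1 at -0.26 ± 0.0388 (SE, adjusted p = 0.0008) and Aldh2 at -0.19 ± 0.0468 (SE, adjusted p = 0.0123). Each is an average over groups and does not mean a like value in every group.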

How the data were processed

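Kidney total RNA was hybridised to 24 two-channel arrays, and the table deposited by the authors gives a log ratio for each probe on each array, a value whose base and numerator the sources do not state. Per the labels channel 1 was Cy5 and channel 2 Cy3. How the authors corrected background and normalized is not given in the sources used. Of 3742 probe identifiers 1766 had a value. Symbols came from the platform annotation, and 1421 of 1426 single symbols were found in the rat gene table.

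Arrays were centred on the median and not turned by dye, and both arrays of a pair were averaged. As deposited, swapped arrays of a pair correlated at r -0.0595 to 0.749, below 0 in 4 of 12 pairs. After the mean of other arrays of their orientation was removed, r was 0.169 to 0.825. limma 3.58.1 in R 4.3.3 (statmod 1.5.0 for the block) fitted 1 coefficient per group over 12 pairs, with eBayes moderation. Tests were two-sided, and p-values were adjusted by Benjamini-Hochberg over all probes, with a threshold of 0.05. A probe needed both orientations in at least 2 of the 3 pairs of every group involved. The spread that p-values measure is that between pairs of rats. Each comparison was also fitted to simulated pair values with independent normal noise and added shifts. That simulation held neither rats that recur between times nor dye effects, so it cannot speak to them. Figures were drawn with matplotlib 3.10.9 in Python 3.11.15.

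Rat names pair the overnight and 3-day samples of a strain. Deviations from the group mean had r 0.0592 to 0.646 between times for the same low-numbered rat, and -0.723 to 0.272 for rats of different number. The lowest, 0.0592 for SS rat 2, was below the 0.272 of SS rat 1 at 3 days with rat 2 overnight. It was also below the 0.186 of SS rat 2 at 3 days with rat 3 overnight. Members, gene lists, motifs and comparisons were chosen with earlier results of these data known. Named list genes were those past the threshold in a group, filled to 4 by smallest p, or 2 for a difference. Alike genes were the 3 closest to each member past the threshold in the common response. Alternatives changed centring, spread, quantile normalization, dye orientation, the pair filter, the replicate block, the samples fitted and each pair left out.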

Additional observations from a re-analysis of the deposited data

How the results depend on the processing

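Values as deposited changed no call of a member, and neither did requiring all 3 pairs or the replicate block on the low-numbered rat. The block gave 5 probes instead of 3 in SS at 3 days, with a correlation of 0.267 to 0.279. Scaling arrays to one spread gave 9 probes in SS at 3 days, 51 in SS overnight (30 positive, 21 negative, against 11 and 2), 61 in SS-13BN/Mcw at 3 days and 7 for SS minus SS-13BN/Mcw at 3 days, with 1 member in each SS group. Quantile normalization gave 18, 67, 61 and 5 probes for these, with 2 members in each SS group. Requiring all 3 pairs gave 1 probe in SS at 3 days. Letting 1 orientation and 1 pair suffice gave 0 there (203 at an unadjusted p under 0.05), 15 in SS-13BN/Mcw at 3 days, 8 in SS overnight. In SS-13BN/Mcw overnight it gave 79, where 4 of 5 members passed and Gss did not (adjusted p = 0.0502). Groups fitted alone gave 0 probes in SS at 3 days (65 unadjusted), 31 in SS overnight with 2 members, and 0 probes and 0 members in SS-13BN/Mcw overnight (280 unadjusted). Without single pairs the probes numbered 0 to 10 in SS at 3 days, 0 to 6 in SS overnight, 0 to 29 in SS-13BN/Mcw at 3 days, 12 to 92 in SS-13BN/Mcw overnight, 0 to 1 for SS minus SS-13BN/Mcw at 3 days and 167 to 269 in the common response. Members numbered 0 to 2 in SS-13BN/Mcw at 3 days and 2 to 5 overnight.

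Turning arrays by dye gives the contrast of the rats if the deposited ratios are Cy5 over Cy3. If the ratios keep their LS and HS direction in both orientations, as assumed here, the turned pair mean is a dye contrast. The sources do not state which holds. Turning gave 344, 325, 299, 309 and 568 probes in SS at 3 days, SS overnight, SS-13BN/Mcw at 3 days, SS-13BN/Mcw overnight and the common response. Members past the threshold were 2 in each SS group and 0 in each SS-13BN/Mcw group. The 2 in SS had opposite signs. Gsta2 was positive (limma adjusted p = 0.0102 at 3 days and 0.0204 overnight). Akr7a3 was negative, at -0.14 at 3 days (adjusted p = 0.0364) and -0.22 overnight (adjusted p = 0.00639). In SS-13BN/Mcw Akr7a3 stood at -0.077 at 3 days and -0.076 overnight. In the order of those 5 comparisons Gsta2 turned to 0.21, 0.20, 0.088, 0.048 and 0.13. Gss turned to 0.018 in SS at 3 days, 0.035 in SS-13BN/Mcw overnight and 0.0041 in the common response. Gpx4 turned to 0.10 in SS at 3 days, 0.13 in SS-13BN/Mcw at 3 days, 0.17 in SS-13BN/Mcw overnight and 0.092 in the common response. SS minus SS-13BN/Mcw turned to -0.023 for Gpx4 and -0.059 for Akr7a3 at 3 days, and overnight to -0.062 for Gss, -0.028 for Gclm, -0.21 for Gpx4 and -0.14 for Akr7a3.

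The time differences, none past the threshold, turned sign most. In SS, 3 days minus overnight turned to 0.028, 0.015 and 0.058 for Gsta2, Gss and Akr7a3 with scaling, to 0.0010 and 0.020 for Gsta2 and Gss with quantile normalization, and by dye to 0.010, 0.045, -0.11 and 0.079 for Gsta2, Gss, Gclm and Akr7a3. In SS-13BN/Mcw it turned to -0.16 and -0.12 for Gsta2 and Akr7a3 with scaling, to -0.12 and -0.18 with quantile normalization, and by dye to -0.044, -0.048 and -0.00079 for Gss, Gpx4 and Akr7a3. Without single pairs it ran in SS from -0.26 to 0.24 for Gsta2, -0.063 to 0.054 for Gss, -0.16 to 0.10 for Akr7a3 and -0.10 to 0.11 for Gpx4, and in SS-13BN/Mcw from -0.41 to 0.38 for Gsta2, -0.14 to 0.26 for Gss and -0.34 to 0.46 for Akr7a3. Gss ran from -0.10 to 0.0085 in SS at 3 days and from -0.097 to 0.0048 in SS overnight, and Gpx4 from -0.19 to 0.021 in SS overnight. The cause was not tested.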
